A study of Homo sapiens with 15 samples.

Results

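The lysosomal gene set described here holds 36 genes, taken by symbol from the table of 60286 genes, and all 36 were found and had enough counts to be tested, among 17198 tested genes. It comprises 7 cysteine cathepsins and legumain, 3 other proteases, 11 glycosidases, 3 sulfatases, 6 lipid-handling enzymes and activators, 5 membrane proteins and the transcription factor TFEB. RNA was sequenced from THP-1, a wild-type human monocytic leukemia cell line, in 15 libraries, with 5 groups of 3. Non-stimulated cells (NC) were given PBS. Bacterial extracellular vesicles (BEVs) of *E. coli* were added at 1 μg/mL, after isolation by ultracentrifugation (UC, group EUC) or by precipitation with ϵ-poly-L-lysine (PL, group EPL). Those of *S. aureus* were added at 10 μg/mL, likewise after UC (SUC) or PL (SPL), so species and dose changed together. The study's methods give 6 hours of incubation, whereas the labels give Day 0. BEV doses are protein concentrations, the cells are a leukemia line and not primary monocytes, and no source used here says whether the 3 libraries of a group came from separate cultures, so p-values measure the spread between these libraries, which may be technical.

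Lysosomes are acidic organelles that break down proteins, sugars and lipids delivered by endocytosis, phagocytosis and autophagy. Soluble hydrolases work in the lumen, heavily glycosylated proteins such as LAMP1 and LAMP2 line the membrane, and a proton pump, the V-ATPase, keeps the lumen acidic. In monocytes and macrophages the same organelle digests engulfed bacteria. TFEB is a transcription factor that mTORC1 holds in the cytoplasm of fed cells and that, once in the nucleus, binds E-box elements of the CLEAR type in promoters of many lysosomal genes.

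The E-box core CACGTG, a palindrome read alike on both strands, was searched in RefSeq promoter windows of GRCh38.p14, each running from 250 bases before to 50 bases after a transcription start. Of the 36 genes, 26 matched the promoter table, with 39 windows, the others being *CTSB*, *CTSS*, *LGMN*, *HEXA*, *MANBA*, *NAGLU*, *ARSA*, *ASAH1*, *PSAP* and *LAMP2*. The core was in 7 of these windows (17.9%) and in 7.26% of all 35116 windows of that length. The longer form GTCACGTG, which contains the core, was in 5 member windows (12.8%) and in 2.4% of all windows, and TCACGTGA, which also contains it, was in 3 (7.69%) and in 0.98%. The 7 genes with the core were *ARSB*, *NEU1*, *CTSD*, *CD63*, *LAMP1*, *GAA* and *CTSA*. Stretches of 6 of them are printed 5′ to 3′ on the strand of the gene, with the core in capitals.
ARSB: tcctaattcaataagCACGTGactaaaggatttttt
NEU1: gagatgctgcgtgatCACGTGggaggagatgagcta
CTSD: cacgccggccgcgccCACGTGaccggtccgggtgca
LAMP1: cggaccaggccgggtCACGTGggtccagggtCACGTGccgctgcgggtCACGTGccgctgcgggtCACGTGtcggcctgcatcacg
GAA: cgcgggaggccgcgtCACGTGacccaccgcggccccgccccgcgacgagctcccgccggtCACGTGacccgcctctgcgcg
CTSA: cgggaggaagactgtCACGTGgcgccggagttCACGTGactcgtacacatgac

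The *ARSB* stretch lies at chr5:78986098-78986133 on the minus strand, with the core at position -160 from the RefSeq start. That of *NEU1* lies at chr6:31862927-31862962 on the minus strand, with the core at -126. That of *CTSD* lies at chr11:1763954-1763989 on the minus strand, with the core at -47, inside the longer *CTSD* gene model of GENCODE release 44. The *LAMP1* stretch lies at chr13:113297032-113297117 on the plus strand and holds 4 copies, and further copies began at -28 and -1. The *GAA* stretch (chr17:80101490-80101570, plus strand) and the *CTSA* stretch (chr20:45891278-45891330, plus strand) hold 2 copies each. In GENCODE release 44 the *CTSA* stretch lies inside the *CTSA* gene model, and the *GAA* stretch reaches into that of *GAA*. In 1 of the 8 *CD63* windows, which lies inside the *CD63* gene model of that release, the core stood at -180. A match is a description of these letters and was not tested for binding by TFEB.

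Counts per library were between 14399421 and 16637345, and levels are given as CPM, counts scaled in the usual way to the TMM-normalized library size. The 9 monocyte markers (*CD14*, *CD33*, *SPI1* and others) were all at a mean of 1 CPM or more, with a summed level of 1110 to 1150 CPM in PBS libraries and 1580 to 2180 CPM in stimulated ones. As means over PBS and over stimulated libraries, *SPI1* was at 471 and 1070 CPM, *CSF1R* at 208 and 306 and *CD14* at 3.77 and 7.81, whereas *CD33* was at 82.8 and 57.5, *LYZ* at 90.4 and 72.6, *ITGAM* at 60.1 and 54.2 and *MPO* at 10.2 and 3.94. Of 4 T cell markers, *CD3D* and *CD3G* were at 0 throughout, and the sum never passed 0.0624 CPM. The 3 epithelial markers summed to at most 0.384 CPM, the 3 B cell markers to between 1.38 and 5.43 CPM, and the 4 fibroblast markers to 0.64 to 0.941 CPM in PBS and 2.12 to 7.02 CPM in stimulated libraries. The part of the latter in the results was not tested. Bulk RNA cannot tell fewer cells of a kind from less RNA per cell.

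The libraries EUC3, EPL1 and SUC3 stood apart from the others of their groups. A chi-square of the counts divided by its degrees of freedom was 15.6 to 46.3 in the 6 within-group pairs that held one of them and 2.21 to 7.11 in the other 9. Across tested genes, their deviations from the group mean correlated with each other at r = 0.443 to 0.525, and no label names a batch. Of the 36 lysosomal genes, 20 were highest of their group in each of the 3 libraries (21.4% of all tested genes were) and 2, *IDS* and *NPC1*, were lowest in each (20.1%). Values without these 3 are given beside the results for some of the genes.

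**Figure D1:**
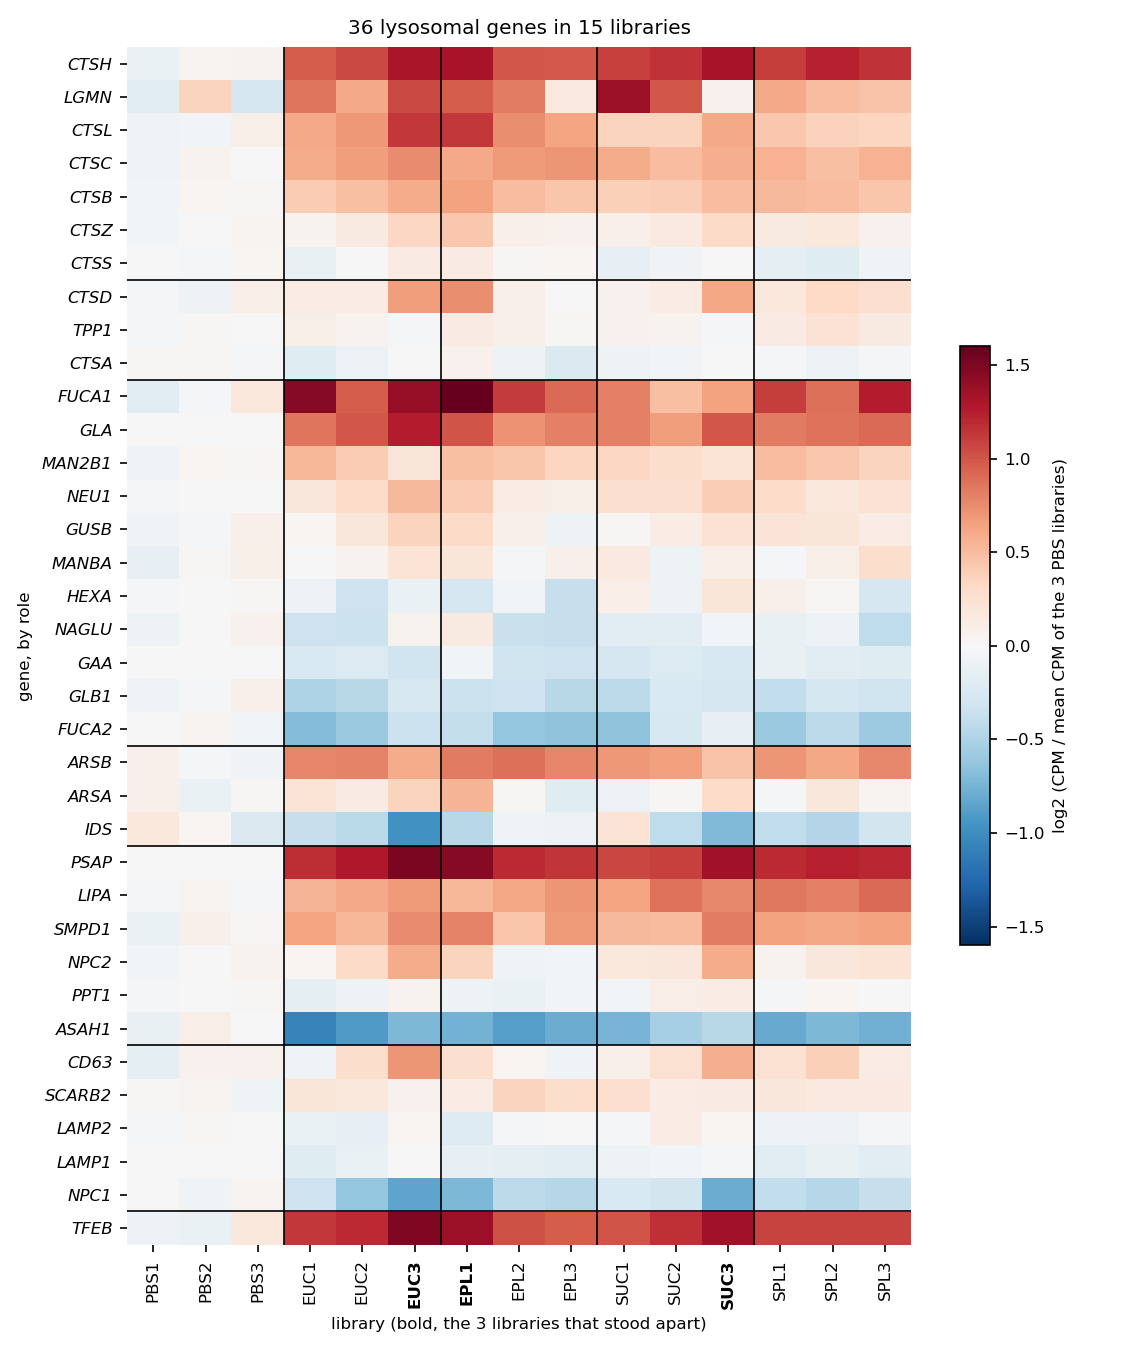
Level of the 36 genes (rows, by role) in the 15 libraries (columns), as log2 of CPM over the mean CPM of the 3 PBS libraries, red above and blue below. PSAP, CTSH and TFEB are red in all 12 stimulated libraries and ASAH1 is blue in all of them, while CTSD is darkest in EUC3, EPL1 and SUC3 (bold).

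BEV-stimulated cells, taken as the mean of the 4 stimulated groups, had higher RNA of 13 lysosomal genes and lower RNA of 5 than PBS cells, with adjusted p-values no greater than 0.01. Among all tested genes 17.9% were higher and 16.9% lower by the same rule, and these shares also apply to the counts by role and list below. The genes that rose included prosaposin, cathepsin H, TFEB, α-fucosidase and α-galactosidase, and acid ceramidase fell most. At least 2-fold changes, the threshold of the study for DEGs, were seen for 4 genes (*PSAP*, *TFEB*, *CTSH* and *FUCA1*), all higher. By that rule 8.99% of all tested genes rose, and 883 of 17198 fell. Without EUC3, EPL1 and SUC3 the count was 3, *FUCA1* being just below 2-fold. The median log2 fold change was 0.18 over the 36 genes and -0.0022 over all tested genes. In 15 genes all 12 stimulated libraries lay above all 3 PBS libraries (17.5% of all tested genes did so) and in 5 all 12 lay below (16.1%).

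**Figure D2:**
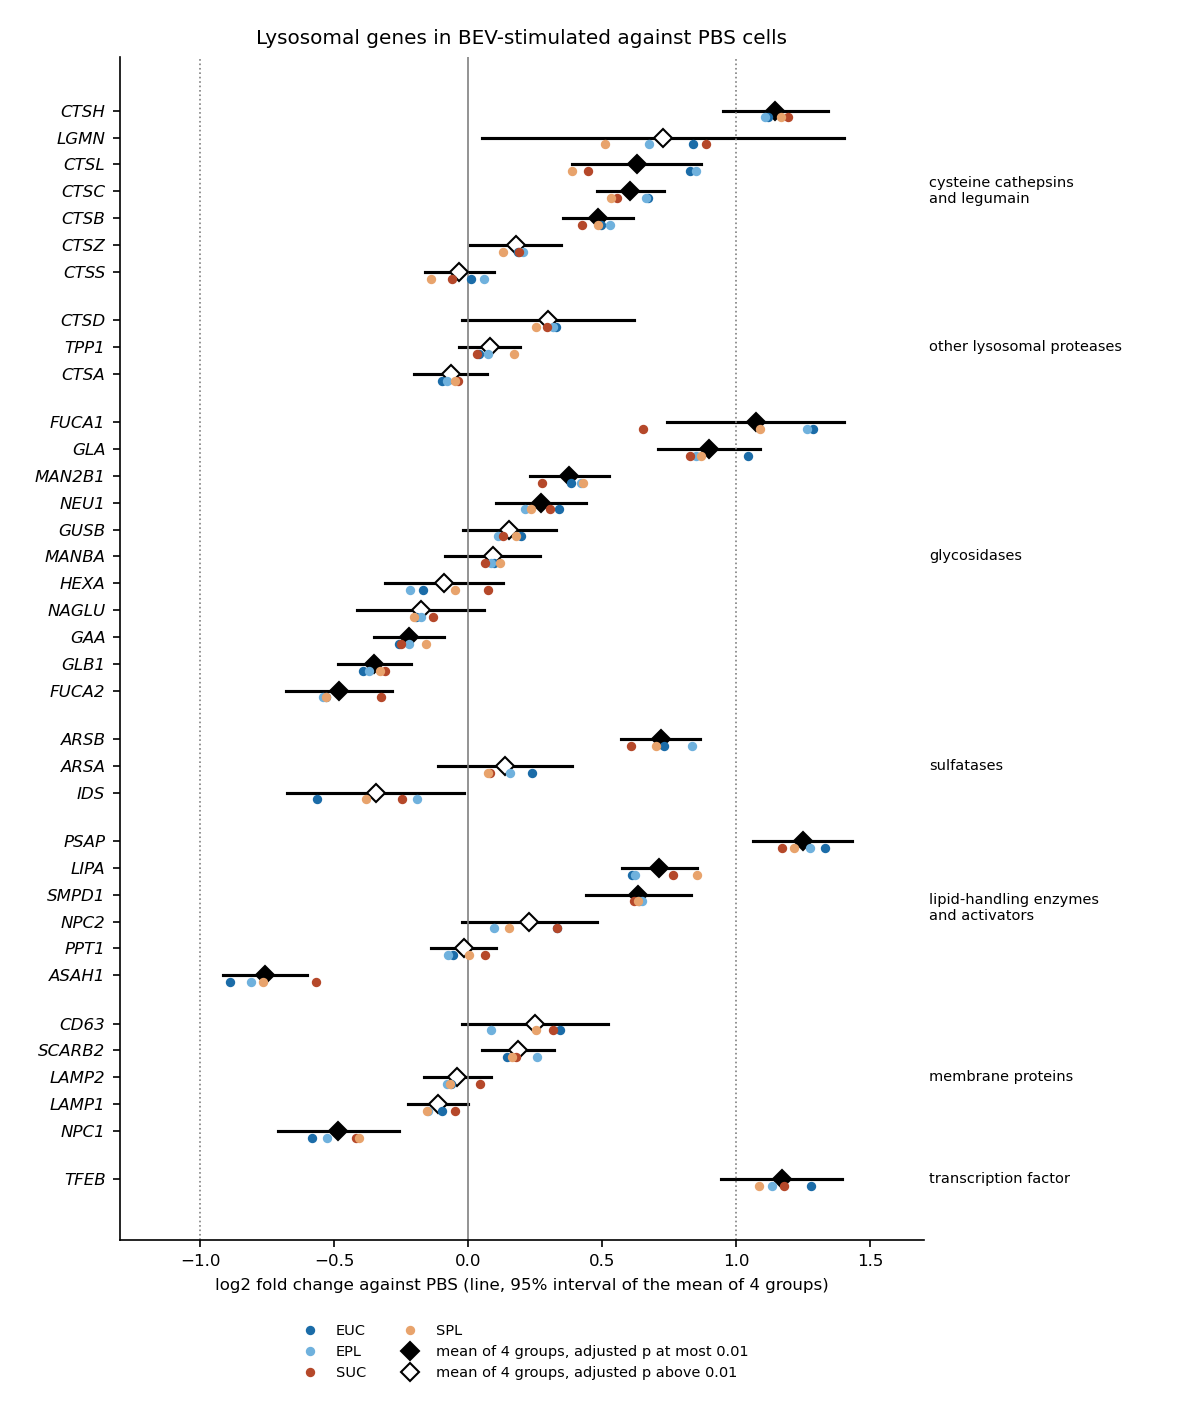
Log2 fold change against PBS (x axis) of the 36 genes (y axis, by role): diamonds give the mean of the 4 stimulated groups with its 95% interval, filled where the adjusted p does not exceed 0.01, and dots give each group. Dotted lines mark 2-fold changes. Filled diamonds stand right of 0 for 13 genes and left of it for 5, and for CTSL both *E. coli* dots lie right of both *S. aureus* dots.

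The cysteine cathepsins digest proteins in the lysosome, and 4 of the 7 genes of this small group rose while none fell (17.9% and 16.9% of all tested genes). *CTSH* encodes an aminopeptidase and lies at chr15:78921058-78949574. It was at 50.6, 56.2 and 56.6 CPM in the PBS libraries, 107, 113 and 135 in EUC, 136, 108 and 108 in EPL, 116, 121 and 136 in SUC and 117, 129 and 121 in SPL. The lowest stimulated library was therefore far above the highest PBS library. Its log2 fold change was 1.15 (SE 0.0924, 95% interval 0.95 to 1.34, adjusted p = 1.74e-08), and it rose more than 2-fold in each of the 4 groups. Without EUC3, EPL1 and SUC3 the log2 fold change of *CTSH* was 1.075. In EPL alone that of *CTSH* went down to 0.9884, just below 2-fold, over the alternative settings.

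*CTSB* encodes cathepsin B and *CTSC* the dipeptidase that activates serine proteases of granules. *CTSB* was at 242 to 255 CPM in PBS and at 325 to 391 CPM (median 349.5) in stimulated libraries, a log2 fold change of 0.48 (SE 0.0618, adjusted p = 5.26e-06). *CTSC* was at 179 to 194 CPM in PBS and at 261 to 314 CPM after stimulation, a log2 fold change of 0.60 (SE 0.0586, adjusted p = 1.81e-07). Both rose in all 4 groups without overlap with PBS.

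*CTSL*, cathepsin L, was chosen for description after its values were seen. It was at 52.7, 52.9 and 58.3 CPM in PBS, 83.0, 88.2 and 119.8 in EUC, 119.7, 91.4 and 84.5 in EPL, 70.2, 69.8 and 83.4 in SUC and 73.7, 70.8 and 69.5 in SPL. All 12 stimulated libraries were above PBS, and EUC3, EPL1 and SUC3 were the highest of their groups. The log2 fold change was 0.63 (SE 0.114, adjusted p = 2.28e-04) and was 0.52 without these 3 libraries. It passed the test in EUC (0.83) and EPL (0.85), with adjusted p of 1.19e-04 and 9.61e-05, but not in SUC (0.45, adjusted p = 0.0213) or SPL (0.39, adjusted p = 0.0421).

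The other 3 genes of the group did not pass. *CTSS*, cathepsin S of antigen presentation, was at 133 to 138 CPM in PBS and 118 to 148 CPM after stimulation, with a log2 fold change of -0.03 (95% interval -0.16 to 0.10). *CTSZ* was at 259.6 to 274.9 CPM in PBS and 278.8 to 358.8 CPM in stimulated libraries, without overlap, but its log2 fold change of 0.18 did not pass (adjusted p = 0.0847). It shares 31.7% of its exonic bases with *NELFCD* on the other strand. As the strand setting of the counting is not given, reads of the pair could not be told apart. *LGMN*, legumain, had only 7 counts in its lowest library, at 0.417 to 0.647 CPM in PBS and 0.528 to 1.298 CPM in stimulated libraries, which overlap.

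None of the 3 other proteases passed the test. *TPP1*, a tripeptidyl peptidase, had a log2 fold change of 0.08 (95% interval -0.04 to 0.19), and *CTSA*, the protective protein that keeps β-galactosidase and neuraminidase stable, -0.07 (95% interval -0.20 to 0.07), with 21.5% of its exonic bases shared with genes such as *NEURL2* and *PLTP*. *CTSD*, the aspartyl protease cathepsin D, was at 141, 136 and 155 CPM in PBS, 157, 157 and 229 in EUC, 242, 153 and 144 in EPL, 152, 156 and 222 in SUC and 161, 180.2 and 173 in SPL. The 3 highest values are those of EUC3, EPL1 and SUC3. Of the other stimulated libraries, EPL2, EPL3 and SUC1 lay within the PBS range. The rest, all SPL libraries among them, lay above the highest PBS library. Its log2 fold change was 0.30 (SE 0.152, adjusted p = 0.124) with all libraries and 0.13 (SE 0.0498, adjusted p = 0.0277) without these 3. Of its exonic bases, 48.0% are shared with other gene models, 2 of them on the same strand. *CTSD* and *CTSA*, whose promoters hold the E-box printed above, were thus not called.

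**Figure D3:**
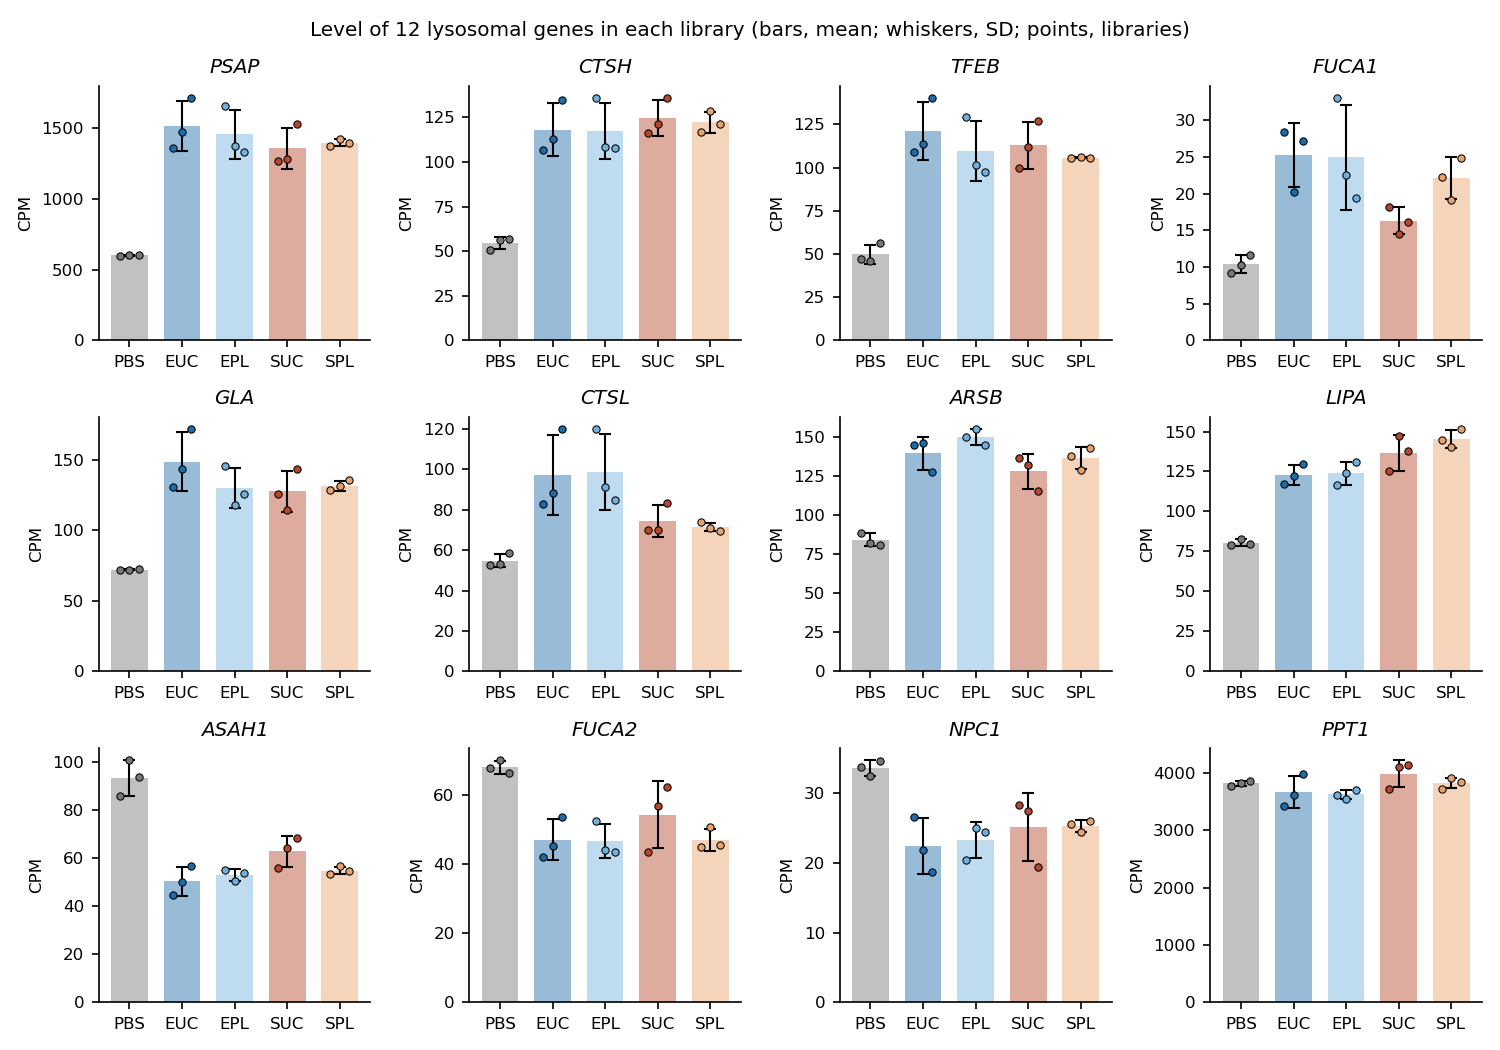
CPM (y axis, from 0) of 12 lysosomal genes in PBS, EUC, EPL, SUC and SPL cells: points are libraries, bars means and whiskers SD (n = 3). PSAP lies at 599.9 to 606 CPM in PBS and at 1267 to 1714 CPM in stimulated libraries, ASAH1 is lower in each stimulated library than in any PBS library, and PPT1 overlaps between groups.

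The glycosidases remove sugars from glycoproteins and glycolipids, and of the 11 genes 4 rose and 3 fell. *FUCA1* encodes the lysosomal α-fucosidase (chr1:23845077-23868290). It was at 9.21, 10.2 and 11.6 CPM in PBS, 28.4, 20.2 and 27.2 in EUC, 33.0, 22.5 and 19.4 in EPL, 18.2, 14.5 and 16.2 in SUC and 22.3, 19.1 and 24.8 in SPL. All stimulated libraries were above PBS, with SUC nearest to it. Its log2 fold change was 1.07 (SE 0.156, 95% interval 0.74 to 1.40, adjusted p = 2.29e-05), and 0.9973 without EUC3, EPL1 and SUC3. It was weakest in SUC, where 0.65 did not pass (adjusted p = 0.0143), and reached 1.09 in SPL, 1.27 in EPL and 1.29 in EUC.

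*GLA* encodes α-galactosidase A, the enzyme deficient in Fabry disease (chrX:101393273-101408012). PBS libraries were at 72.0, 71.9 and 72.5 CPM, EUC at 131, 144 and 172, EPL at 146, 118 and 126, SUC at 126, 114 and 143, and SPL at 128, 131 and 136. The groups did not overlap with PBS. Its log2 fold change was 0.90 (SE 0.0898, adjusted p = 2.72e-07) and 0.83 without EUC3, EPL1 and SUC3, and it passed in all 4 groups but was over 2-fold in EUC only (1.04), a difference between isolation methods of -0.19 (EPL minus EUC, adjusted p = 0.947) that did not pass. *MAN2B1*, α-mannosidase, rose by 29.9% (log2 fold change 0.38, adjusted p = 2.38e-04) from 150.4 to 159 CPM in PBS to 178 to 226 CPM, with 21.2% of its exonic bases shared with other genes of its strand. *NEU1*, the sialidase, was at 65.3 to 66.5 CPM in PBS and 70.7 to 94.9 CPM after stimulation (log2 fold change 0.27, SE 0.0793, adjusted p = 0.00971). It passed in none of the 4 groups alone, and lost its call in 13 of 21 alternative settings. Without EUC3, EPL1 and SUC3 its log2 fold change was 0.21 (adjusted p = 0.000688).

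The 3 glycosidases that fell are *FUCA2*, *GLB1* and *GAA*. *FUCA2*, the secreted α-fucosidase, was at 67.6, 69.9 and 66.1 CPM in PBS, 42.1, 45.2 and 53.5 in EUC, 52.3, 44.1 and 43.3 in EPL, 43.5, 56.7 and 62.2 in SUC and 44.8, 50.6 and 45.3 in SPL. *FUCA1* and *FUCA2*, which act on the same sugar, thus had fold changes of opposite sign in each group. That of *FUCA2* was, in log2, -0.48 (SE 0.0938, adjusted p = 4.04e-04), and it passed in EUC, EPL and SPL but not in SUC (-0.33, adjusted p = 0.0533). These calls of *FUCA2* were lost in 4 of 13 alternative settings in EUC, 3 in EPL and 4 in SPL. EUC3, EPL1 and SUC3 were the highest of their groups, and without them the log2 fold change of *FUCA2* was -0.56 (adjusted p = 1.98e-08). Genes of the other strand share 16.7% of the exonic bases of *FUCA2*.

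*GLB1*, the β-galactosidase that degrades gangliosides, was at 76.8, 79.2 and 85.3 CPM in PBS, 57.4, 59.1 and 67.3 in EUC, 63.5, 64.0 and 59.2 in EPL, 60.1, 67.9 and 66.6 in SUC and 61.0, 66.4 and 64.4 in SPL. Each stimulated library was below each PBS library, and the log2 fold change was -0.35 (SE 0.0645, adjusted p = 2.48e-04). *GLB1* passed in all 4 groups, in SUC with an adjusted p of 0.00882. Of 13 alternative settings, its call was lost in 9 in SUC, 7 in SPL, 3 in EPL and 2 in EUC. *GAA*, the α-glucosidase that degrades glycogen, was at 230.4, 231 and 229 CPM in PBS, 195, 198 and 184 in EUC, 224, 185 and 183 in EPL, 191, 197 and 193 in SUC and 211, 206 and 201 in SPL. It fell by 14.3% (log2 fold change -0.22, SE 0.0614, adjusted p = 0.00679), in the mean of the groups but in no group alone, and lost its call in 12 of 21 settings. Without EUC3, EPL1 and SUC3 the log2 fold change of *GAA* was -0.24 (adjusted p = 2.07e-05).

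The other 4 glycosidases did not pass. *GUSB*, β-glucuronidase, had a log2 fold change of 0.15 (95% interval -0.02 to 0.33), *MANBA*, β-mannosidase, 0.09 (-0.09 to 0.27) and *HEXA*, a subunit of β-hexosaminidase, -0.09 (-0.31 to 0.13). *NAGLU*, which degrades heparan sulfate, had -0.18 (adjusted p = 0.216). Without EUC3, EPL1 and SUC3 its log2 fold change was -0.27 and passed (adjusted p = 0.00384).

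Sulfatases remove sulfate groups from glycosaminoglycans and sulfatides, and 1 of 3 rose. *ARSB* encodes arylsulfatase B (chr5:78777209-78986087). It was at 88.9, 82.4 and 81.2 CPM in PBS, 145, 146 and 128 in EUC, 150.2, 155 and 145 in EPL, 137, 132 and 116 in SUC and 138, 129 and 143 in SPL. All 12 stimulated libraries lay above PBS, and EUC3 and SUC3 were the lowest of their groups. *ARSB* had a log2 fold change of 0.72 (SE 0.0699, adjusted p = 1.96e-07), 0.75 without EUC3, EPL1 and SUC3, and its promoter holds an E-box. *ARSA* was at 54.4 to 61.8 CPM in PBS and 51.0 to 85.0 CPM after stimulation (log2 fold change 0.14, adjusted p = 0.375). *IDS*, iduronate-2-sulfatase, was at 10.7 to 14.01 CPM in PBS and 6.38 to 14.5 CPM after stimulation (-0.35, adjusted p = 0.0818), and 75.9% of its exonic bases are shared with genes of its own strand.

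Enzymes and activators of lipid breakdown held the largest rise and the largest fall of the 36 genes. *PSAP* encodes prosaposin, the precursor of the saposins that present sphingolipids to their hydrolases, and lies at chr10:71816298-71851251. PBS libraries were at 599.9, 604 and 606 CPM, EUC at 1364, 1472 and 1714, EPL at 1659, 1377 and 1336, SUC at 1267, 1282 and 1528, and SPL at 1376, 1428 and 1394. Each stimulated library was above 2 times the highest PBS library. This corresponds to a log2 fold change of 1.25 (SE 0.0873, 95% interval 1.06 to 1.43, adjusted p = 2.72e-09) and 1.18 without EUC3, EPL1 and SUC3, and it was between 1.17 and 1.33 in the 4 groups.

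*ASAH1* encodes acid ceramidase, which splits ceramide into sphingosine and fatty acid (chr8:18055992-18084998). It was at 85.5, 100.5 and 93.5 CPM in PBS, 44.4, 49.9 and 56.5 in EUC, 55.2, 50.4 and 53.6 in EPL, 55.8, 64.2 and 68.3 in SUC and 53.2, 56.5 and 54.7 in SPL. No stimulated library reached the lowest PBS library. It fell by 40.9% (log2 fold change -0.76, SE 0.0742, adjusted p = 2.01e-07) and passed in all 4 groups, from -0.57 in SUC to -0.89 in EUC.

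*SMPD1* encodes acid sphingomyelinase, which makes ceramide, and *LIPA* acid lipase, which frees cholesterol and fatty acids from lipoprotein lipids. *SMPD1* was at 16.8 to 19.1 CPM in PBS and at 24.6 to 31.9 CPM after stimulation, a rise of 55.3% (log2 fold change 0.63, SE 0.0919, adjusted p = 2.12e-05). *LIPA* was at 79.0, 82.8 and 79.7 CPM in PBS, 117, 122 and 129.5 in EUC, 116, 124 and 131 in EPL, 125, 147 and 138 in SUC and 145, 140.3 and 152 in SPL. Its log2 fold change was 0.71 (SE 0.0657, adjusted p = 9.79e-08). Of the exonic bases of *LIPA*, 6.0% are shared with genes of the other strand, *IFIT2* and *IFIT3* among them. As the strand setting is not given, their reads could not be told apart there. *SMPD1* and *LIPA* passed in all 4 groups, so that RNA of the enzyme that makes ceramide rose and that of the ceramidase fell in each.

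*PPT1* encodes palmitoyl-protein thioesterase, which removes fatty acids from proteins, and had the highest level per length of the 36 genes, with a mean of 1132 CPM per kilobase of exon in PBS, against 193.6 for *PSAP* and 144.8 for *CD63*. It was at 3769, 3823 and 3855 CPM in PBS, 3416, 3611 and 3971 in EUC, 3615, 3546 and 3700.0 in EPL, 3711, 4099 and 4138 in SUC and 3719, 3901 and 3834 in SPL. The groups overlapped, and the log2 fold change was -0.02 (95% interval -0.14 to 0.10, adjusted p = 0.833). *NPC2*, which hands cholesterol to NPC1, had 0.23 (95% interval -0.02 to 0.48, adjusted p = 0.134).

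Counts on the 36 genes together made up 8104 ± 132 CPM in PBS cells (SD, n = 3). With *E. coli* BEVs they made up 9571 ± 819 CPM (EUC) and 9380 ± 486 CPM (EPL), and with *S. aureus* BEVs 9653 ± 573 CPM (SUC) and 9503 ± 151 CPM (SPL). *PPT1* took 46.9 to 47.4% of this sum in PBS libraries and 36.4 to 42.6% in stimulated ones. The share of *PSAP* was 7.37 to 7.54% in PBS and 13.3 to 16.7% after stimulation. Without *PPT1* the sum was 4289 ± 88.8 CPM in PBS and, as a group mean, 5670 to 5905 CPM in stimulated cells.

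Of the 5 membrane proteins, none rose and 1 fell. *NPC1* encodes the transporter that moves cholesterol out of lysosomes. It was at 33.8, 32.4 and 34.6 CPM in PBS, 26.6, 21.9 and 18.7 in EUC, 20.4, 25.04 and 24.4 in EPL, 28.4, 27.5 and 19.5 in SUC and 25.6, 24.4 and 26.1 in SPL. All 12 stimulated libraries were below PBS, and EUC3, EPL1 and SUC3 were the lowest of their groups. *NPC1* had a log2 fold change of -0.49 (SE 0.107, adjusted p = 0.00122) and -0.39 (adjusted p = 1.02e-05) without these 3, and it passed in EUC and EPL but not in SUC (adjusted p = 0.0289) or SPL (adjusted p = 0.0316). Its call was lost in 6 of 13 alternative settings in EPL and in 4 of 13 in EUC.

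*LAMP1* and *LAMP2*, which encode the main glycoproteins of the lysosomal membrane, differed little. *LAMP1* was at 266 to 269 CPM in PBS and 233 to 267 CPM after stimulation (log2 fold change -0.11, 95% interval -0.23 to -0.0011, adjusted p = 0.0937). *LAMP2* was at 263 to 269 CPM and 231 to 289 CPM (-0.04, 95% interval -0.17 to 0.08). *SCARB2*, a membrane protein also known as LIMP-2, was at 70.5 to 75.9 CPM in PBS and 76.9 to 94.1 CPM in stimulated libraries without overlap. Its log2 fold change of 0.19 did not pass (adjusted p = 0.0242), and without EUC3, EPL1 and SUC3 it was 0.22 and passed (adjusted p = 4.97e-04).

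*CD63*, a tetraspanin of late endosomes, was at 316, 368 and 369 CPM in PBS, 337, 425 and 573 in EUC, 419.9, 359 and 337 in EPL, 370.0, 416 and 525 in SUC and 416, 455 and 381 in SPL. The libraries overlapped, and EUC3, EPL1 and SUC3 were again the highest of their groups. *CD63* had a log2 fold change of 0.25 (SE 0.129, adjusted p = 0.131) with all libraries and 0.13 (adjusted p = 0.0771) without them.

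*TFEB* itself rose (chr6:41683978-41736259). It was at 47.2, 46.2 and 56.3 CPM in PBS, 109, 114 and 140.2 in EUC, 129, 101 and 97.4 in EPL, 99.95, 112 and 127 in SUC and 106, 106 and 105 in SPL. Every stimulated library was above every PBS library. *TFEB* had a log2 fold change of 1.17 (SE 0.107, 95% interval 0.94 to 1.40, adjusted p = 8.94e-08) and was at least 1.08 in each of the 4 groups. Without EUC3, EPL1 and SUC3 that of *TFEB* was 1.085. In EPL alone that of *TFEB* went down to 0.9943, just below 2-fold, over the alternative settings. Of the 7 genes with the E-box core in a promoter window, *ARSB* and *NEU1* rose, *GAA* fell and *CTSD*, *CD63*, *LAMP1* and *CTSA* did not pass. The calls of *NEU1* and *GAA* were lost in 13 and 12 of 21 alternative settings. Among genes with a window but no core, *CTSC*, *CTSH*, *CTSL*, *GLA*, *FUCA1*, *MAN2B1*, *LIPA*, *SMPD1* and *TFEB* rose and *FUCA2*, *GLB1* and *NPC1* fell. The others without the core, *CTSZ*, *TPP1*, *GUSB*, *IDS*, *NPC2*, *PPT1* and *SCARB2*, did not pass. *PSAP*, *CTSB* and *ASAH1* had no window. A link between the core and these changes was not tested. RNA-seq does not show where the TFEB protein was in the cell.

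Taken group by group, 12 genes rose and 4 fell in EUC (16.5% and 14% of all tested genes), 12 rose and 4 fell in EPL (16% and 13.2%), 9 rose and 2 fell in SUC (12.4% and 9.15%) and 11 rose and 3 fell in SPL (13.3% and 10.6%). At least 2-fold rises were seen for 5 genes in EUC (9.43% of all tested genes) and 4 in EPL (9.38%), and for 3 in SUC (6.82%) and 4 in SPL (7.76%), and no gene fell 2-fold in any group. In EPL this count was 2 without EPL1, as *CTSH* and *TFEB* were then below 2-fold. *CTSB*, *CTSC*, *CTSH*, *GLA*, *ARSB*, *LIPA*, *SMPD1*, *PSAP* and *TFEB* rose in all 4 groups, and *GLB1* and *ASAH1* fell in all 4. Another 5 genes passed in 1 to 3 groups and 20 in none. The sign of the fold change was the same in all 4 groups for 32 genes, the others being *CTSS*, *HEXA*, *PPT1* and *LAMP2*. The 4 groups share their PBS libraries, so this sharing of signs is not independent. Genes called in all, some or none of the groups, and genes with a shared sign, were not counted over all tested genes. Whether the lysosomal genes differ from that background in these counts was therefore not tested.

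To compare the vesicles of both species, the mean of EUC and EPL was set against the mean of SUC and SPL, at doses of 1 and 10 μg/mL. None of the 36 genes passed, with 3.87% of all tested genes called in either direction, although 8 had an unadjusted p under 0.05 (2920 of the 17198 tested genes did) and DESeq2 called 1. *CTSL* came nearest. Its 6 *E. coli* libraries were at 83.0 to 119.8 CPM and its 6 *S. aureus* libraries at 69.5 to 83.4 CPM, which overlap only through SUC3. The log2 fold change was 0.42 (SE 0.0976, 95% interval 0.22 to 0.63, adjusted p = 0.0118), and it passed with DESeq2 (adjusted p = 0.00135) and without EUC3, EPL1 and SUC3 (0.29, adjusted p = 1.99e-04). *FUCA1* was 0.41 higher on the log2 scale with *E. coli* BEVs (95% interval 0.14 to 0.67, adjusted p = 0.0701). *LIPA* was 0.19 lower on that scale (-0.19, 95% interval -0.31 to -0.08, adjusted p = 0.0468), and *ASAH1* had -0.18 (adjusted p = 0.166). For *PSAP* the difference was 0.11 (95% interval -0.04 to 0.26).

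The isolation methods were compared within each species. Between EPL and EUC, 0 of the 36 genes and 0% of all tested genes passed in edgeR, and DESeq2 called 0 of the 36. In edgeR 0 of the 36 had an unadjusted p under 0.05, against 604 of the 17198 tested genes. The largest difference was that of *IDS* (0.37, 95% interval -0.07 to 0.81, EPL minus EUC). Intervals of the genes that rose 2-fold were -0.27 to 0.16 for *PSAP*, -0.24 to 0.21 for *CTSH*, -0.41 to 0.11 for *TFEB* and -0.39 to 0.35 for *FUCA1*. Between SPL and SUC, 0 of the 36 genes passed in edgeR, with 0.00581% of all tested genes called, and DESeq2 called 0 of the 36. In edgeR 1000 of the 17198 tested genes had an unadjusted p under 0.05, and of the 36 genes 1 had (2 with DESeq2). That gene was *FUCA1*, at 22.3, 19.1 and 24.8 CPM in SPL and 18.2, 14.5 and 16.2 in SUC, without overlap (0.44, 95% interval 0.06 to 0.82, unadjusted p = 0.0273, adjusted p = 0.814). The intervals of SPL minus SUC were -0.17 to 0.26 for *PSAP*, -0.25 to 0.20 for *CTSH* and -0.36 to 0.17 for *TFEB*.

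Beyond the 36 genes, 120 tested genes in 7 lists of the lysosomal pathway were examined, of which 30 rose and 24 fell in the mean of the 4 stimulated groups (17.9% and 16.9% of all tested genes). Their median log2 fold change was 0.08. The V-ATPase list held 17 tested subunits, of which 6 rose and 1 fell, with a median of 0.26. *ATP6V1A*, the catalytic subunit, was at 86.6, 84.2 and 78.5 CPM in PBS and at 168 to 198 CPM (median 179.6) in stimulated libraries (log2 fold change 1.12, SE 0.0711, adjusted p = 7.68e-10). *ATP6AP2*, an accessory protein of the pump, was at 95.3, 104 and 100.2 CPM and at 135 to 179 CPM (0.56, adjusted p = 1.24e-05). *TCIRG1*, the a3 subunit of the membrane sector, fell from 400.2, 381 and 380.1 CPM to 253 to 356 CPM (-0.42, adjusted p = 2.04e-04), so RNA of genes in this list moved both ways.

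**Figure D4:**
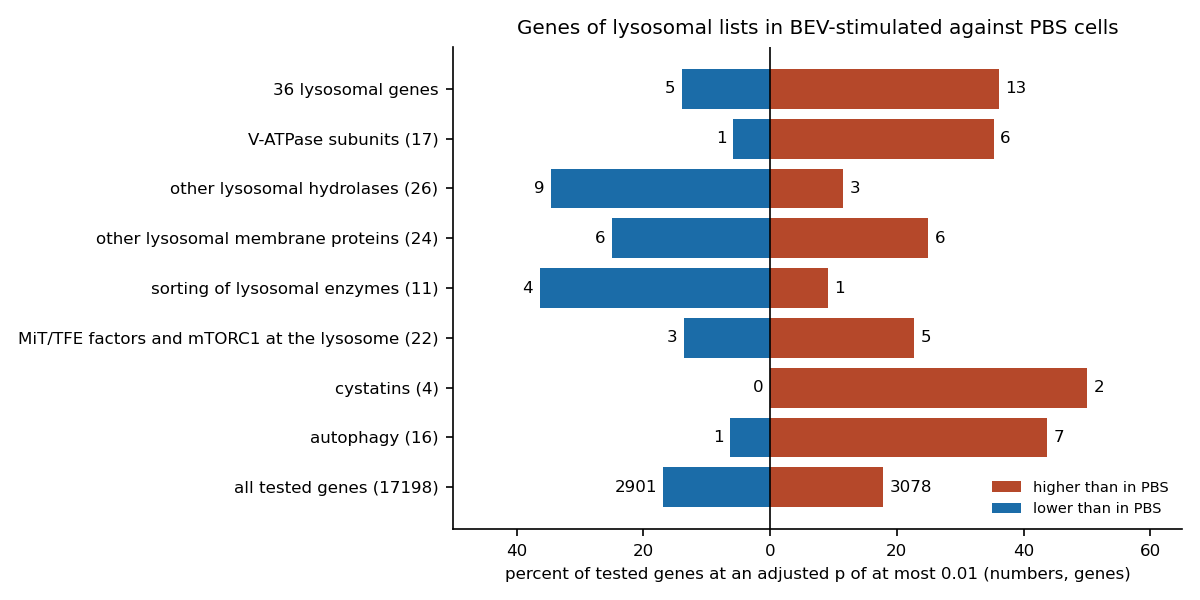
Percent of tested genes of each list (x axis; number tested in brackets) that were higher (red) or lower (blue) in BEV-stimulated than in PBS cells by an adjusted p of 0.01 or less, with gene counts at the bar ends. The 36 genes had 13 higher and 5 lower, the other hydrolases 3 and 9, and all tested genes 3078 and 2901.

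Of 26 hydrolases outside the 36 genes, 3 rose and 9 fell (17.9% and 16.9% of all tested genes), with a median of -0.20. *SGSH*, a heparan sulfatase whose call was lost in 3 of 21 settings, was at 1.15, 1.000 and 1.73 CPM in PBS and 1.79 to 3.996 CPM after stimulation (log2 fold change 1.14, SE 0.251, adjusted p = 0.00124), and *ACP2*, acid phosphatase, at 19.3 to 20.1 CPM and 24.0 to 37.1 CPM (0.57, adjusted p = 2.88e-04). *RNASET2*, an acid ribonuclease, fell by 0.59 on the log2 scale (adjusted p = 0.00201), though its stimulated libraries of 84.0 to 150.2 CPM overlapped those of PBS (146, 172 and 167) and the call was lost in 3 of 21 settings.

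Among 24 other membrane proteins 6 rose and 6 fell (median -0.04). *LAMP3*, a lysosomal membrane glycoprotein of mature dendritic cells, was at 0.448, 0.823 and 0.417 CPM in PBS and at 9.94 to 48.2 CPM (median 31.8) in stimulated libraries, a log2 fold change of 5.51 (SE 0.204, adjusted p = 5.87e-13). *SLC15A3*, a peptide and histidine transporter, was at 31.9, 34.9 and 37.6 CPM and at 125 to 172 CPM (2.06, adjusted p = 1.77e-12). *SLC11A1*, the metal ion transporter NRAMP1 of phagosomes, fell from 18.6, 18.7 and 20.2 CPM to 5.25 to 8.85 CPM (-1.47, SE 0.086, adjusted p = 2.38e-10). *TPCN1*, a cation channel of endolysosomes, fell from 446, 452 and 436 CPM to 143 to 249 CPM (-1.06, adjusted p = 7.27e-08), and EUC3, with 143 CPM, was its lowest library. *LAMP3* therefore rose about 45.7-fold while *LAMP1* and *LAMP2* did not pass.

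In the list of proteins that sort hydrolases to the lysosome, 1 of 11 rose and 4 fell (median 0.08). The adaptors *GGA1* and *GGA2*, which load mannose 6-phosphate receptors into vesicles, differed in direction. *GGA1* rose from 59.8, 58.0 and 60.8 CPM to 67.5 to 82.7 CPM (0.33, adjusted p = 2.32e-04), and *GGA2* fell from 315, 315 and 318 CPM to 147 to 206 CPM (-0.83, SE 0.0531, adjusted p = 7.92e-10). *SORT1*, the sorting receptor sortilin, which also carries prosaposin, fell from 6.27, 7.18 and 6.68 CPM to 1.78 to 4.37 CPM (-1.21, adjusted p = 2.55e-05).

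Of 22 genes of the MiT/TFE family and of mTORC1 at the lysosome, 5 rose and 3 fell (median 0.03). *TFEC* and *TFE3*, relatives of TFEB, rose from 84.6, 80.3 and 78.2 CPM to 182 to 254 CPM (1.40, SE 0.0796, adjusted p = 1.66e-10) and from 51.2, 51.8 and 55.7 CPM to 91.8 to 114 CPM (1.00, adjusted p = 3.09e-10). *MITF* of the same family, named after its value was seen, also rose, so all 4 family members, *TFEB* included, were higher. *RRAGD*, a Rag GTPase that recruits mTORC1, fell from 31.9, 29.8 and 30.3 CPM to 15.5 to 22.6 CPM (-0.74, adjusted p = 2.18e-06), and *MLST8*, a subunit of mTORC1, from 58.2, 57.8 and 61.5 CPM to 30.0 to 44.8 CPM (-0.62, adjusted p = 4.91e-05).

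The cystatins inhibit cysteine cathepsins, and 2 of 4 rose with none lower (median 0.29). *CSTB* rose from 67.1, 72.5 and 75.5 CPM to 105 to 184 CPM (0.82, adjusted p = 6.32e-05) and *CSTA* from 65.5, 76.8 and 74.5 CPM to 80.5 to 137 CPM (0.46, adjusted p = 0.00499), with EUC3 highest for both. The call of *CSTA* was lost in 4 of 21 settings. Among 16 autophagy genes 7 rose and 1 fell (median 0.24). The cargo receptors *OPTN* and *SQSTM1* rose most, *OPTN* from 10.8, 12.3 and 13.3 CPM to 68.2 to 93.9 CPM (2.72, SE 0.0904, adjusted p = 1.47e-13) and *SQSTM1* from 154, 162 and 153 CPM to 519.6 to 751 CPM (1.91, adjusted p = 1.02e-12), with 22.4% of the exonic bases of *SQSTM1* shared with *MGAT4B* and *MRNIP*. *UVRAG*, which acts in vesicle fusion, fell from 46.2, 42.9 and 44.1 CPM to 31.5 to 41.6 CPM (-0.25, adjusted p = 0.00841), a call that was lost in 15 of 21 settings.

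Between the species, 4 of these 120 genes passed (3.87% of all tested genes did), 3 of them, *LAMP3*, *GM2A* and *ATG7*, higher with *E. coli* BEVs and *ATP6V0A1* lower. *GM2A*, *ATG7* and *ATP6V0A1* were named after their values were seen. *GM2A*, the activator that presents ganglioside to β-hexosaminidase, was at 52.2 to 61.7 CPM in the 6 *E. coli* libraries, 42.9 to 50.5 CPM in the 6 *S. aureus* libraries and 64.1 to 69.4 CPM in PBS (log2 fold change between species 0.28, adjusted p = 0.00735). *ATP6V0A1*, an a subunit of the pump, was at 57.4 to 70.8 CPM with *E. coli* and 75.8 to 87.8 CPM with *S. aureus* BEVs (-0.35, adjusted p = 0.00146). In PBS *ATP6V0A1* was at 55.7 to 58.6 CPM, which overlaps the *E. coli* libraries and lies below all *S. aureus* libraries. *ATG7*, an enzyme of autophagosome formation, was at 133 to 153 CPM and 106 to 127 CPM (0.24, adjusted p = 0.00453), with 18.1% of its exonic bases shared with *VGLL4*. The *E. coli* and *S. aureus* libraries did not overlap for any of these 3 genes.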

How the data were processed

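RNA-seq of 15 THP-1 libraries was used, grouped by their labelled titles. The authors checked reads with FastQC 0.11.5, aligned them to hg38 with HISAT2 2.1.0 and deposited whole-number read counts per gene without normalization. The submitters' processing notes also name StringTie 1.3.3b, DESeq 1.28.0 and featureCounts, without roles. Which strand setting and gene annotation were used is not stated in the sources. The table had 0 rows that name no gene and 0 unused columns of values.

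For the tests, edgeR 4.0.16 was run under R 4.3.3 on these counts. Low genes were removed with filterByExpr, libraries normalized by TMM, and a quasi-likelihood model was fitted to all 15 libraries, with Benjamini-Hochberg adjustment over 17198 genes. Genes at an adjusted p of at most 0.01 were called, with and without a 2-fold threshold. The common biological coefficient of variation was 0.118. Intervals are 95%. Gene positions, exon lengths and overlaps came from GENCODE release 44. Scripts were tested on simulated data.

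The members and lists were chosen with earlier results of these data known. Per-library values were given for members called with the 2-fold threshold in any comparison, for the 6 largest rises and 6 largest falls called in BEV-stimulated against PBS cells, for TFEB and for the 3 highest levels per kilobase. Of each list, the 2 largest rises and 2 largest falls with a mean of at least 1 CPM were named. A gene that this rule names among the hydrolases is not reported here. *CTSL*, *CTSD*, *LIPA* and the ranges of the remaining members were added after their values were seen. *ATP6V0D2*, *ACP5*, *CD68* and *GABARAP* were listed but did not pass the filter on low counts. Alternatives were DESeq2 1.42.0, its size factors in edgeR, no filter, only the groups compared, a replicate block, a 1.5-fold threshold (glmTreat), leaving out each library, and leaving out EUC3, EPL1 and SUC3 together, which was chosen after seeing the data.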

Additional observations from a re-analysis of the deposited data

Results flagged for a closer look

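4 of the 120 tested genes of the pathway lists differed between the stimulations with *E. coli* and *S. aureus* BEVs, by a test of the difference itself that called 3.87% of all tested genes. *LAMP3* differed most. Its level was 42.9 to 48.2 CPM in the 6 *E. coli* libraries, 9.94 to 20.7 CPM in the 6 *S. aureus* libraries and 0.417 to 0.823 CPM in PBS, so that the 3 kinds of libraries did not overlap. Against PBS the log2 fold change was 6.34 (EUC) and 6.29 (EPL) with *E. coli* BEVs, and 4.43 (SUC) and 5.00 (SPL) with *S. aureus* BEVs. The mean of the *E. coli* groups minus that of the *S. aureus* groups was 1.598 on the log2 scale (SE 0.1, 95% interval 1.39 to 1.81, adjusted p = 3.71e-07 in edgeR's quasi-likelihood test). As the *E. coli* BEVs were given at 1 μg/mL and the *S. aureus* BEVs at 10 μg/mL, species and dose cannot be told apart. For the other genes this difference was 0.2751 for *GM2A*, 0.2427 for *ATG7* and -0.3534 for *ATP6V0A1* on the log2 scale, with adjusted p-values of 0.00735, 0.00453 and 0.00146. *ATG7* was at 42.6 to 45.01 CPM in PBS and at 106 CPM or more in stimulated libraries, and *GM2A* at 64.1 to 69.4 CPM in PBS and at most 61.7 CPM after stimulation. *ATP6V0A1* was at 55.7 to 58.6 CPM in PBS, overlapping the *E. coli* libraries, and at 75.8 CPM or more with *S. aureus* BEVs.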

How the results depend on the processing

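The fold changes of the named genes kept their sign in every setting run, except *PPT1* at 0.00094 without EUC1 (-0.03144 to 0.00094 over the left-out libraries). With glmTreat against 1.5-fold, the members higher and lower were 5 and 0 in BEV-stimulated cells, 5 and 1 in EUC, 5 and 0 in EPL, 3 and 0 in SUC and 4 and 0 in SPL. Members lower in SUC were 1 without the filter and 1 with only the groups compared, where 17 were higher in SPL. Between the species, 1 member passed with DESeq2 and 2 (*CTSL* and *FUCA1*) without the filter. Without EUC3, EPL1 and SUC3, 3 members were higher 2-fold in BEV-stimulated cells (3 to 4 over the left-out libraries, 3 without NC1), 2 in EPL, 4 lower in SUC and 1 called between species. Leaving out single libraries gave, of members lower, 3 to 5 in BEV-stimulated cells (3 without NC3), 2 to 4 in EUC (2 without EUC2), 1 to 4 in EPL (2 without NC3, 1 without EPL3), 1 in SUC without any of NC1, NC2, NC3, SUC1, SUC2 or SUC3, and 1 to 3 in SPL (1 without NC2, SPL1 or SPL3), 2 to 4 higher 2-fold in EPL (2 without EPL1) and 0 to 1 between species (1, *CTSL*, without EUC1, EPL3 or SUC3). The causes were not tested. The replicate numbers share no stated origin, and same-numbered libraries deviated together with r from -0.452 to 0.525 over 30 pairs (7 over 0.1), with 7 of 15 libraries closest to one of their own number. With the replicate block *NEU1* (adjusted p = 0.0121) and *UVRAG* (0.0109) lost their calls, and no other call of a named gene changed. The median log2 fold change of all genes lay between -0.0036 and 0.0038 over the scalings.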
